A study of Arabidopsis thaliana with 12 samples.

Results

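The genes described here are the protein-coding genes of the Arabidopsis thaliana chloroplast (plastid) genome. A gene was taken where the array's annotation gave a probe set to it alone and where the RefSeq gene table (assembly TAIR10.1) places that gene on the plastid chromosome. This gave 69 genes with 1 probe set each, of 13356 genes with a probe set of their own and 22746 probe sets tested. RefSeq lists 78 plastid protein-coding symbols. Another 7 genes are listed with 2 copies on the plastid genome, share 8 probe sets and were kept apart. By complex the 69 genes are 7 of photosystem I, 2 of them assembly factors, 15 of photosystem II, 6 of the cytochrome b6f complex, 6 of the ATP synthase, 10 of the NADH dehydrogenase-like (NDH) complex, the large subunit of Rubisco, 15 ribosomal proteins, 4 RNA polymerase subunits and 5 others.

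RNA came from the basal 4 cm of inflorescence stems that were 12 to 17 cm tall, from plants grown in a glasshouse at 22 °C with 16 h of light and 8 h of dark. The 4 groups of 3 arrays are WT (ecotype Col-0), C3H14-OE and C3H15-OE, in which the zinc finger protein gene C3H14 or its relative C3H15 is overexpressed, and c3h14c3h15, the double mutant of both. All plants are Col-0. The labels name neither the promoter of the overexpression constructs nor the mutant alleles, and they do not settle if the overexpressor samples are different lines or plants of 1 line. The p-values cover only how much the samples of a group varied.

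The plastid genome is a small circular DNA kept in many copies in each chloroplast. It encodes part of the photosynthetic complexes, the NDH complex and the plastid's own ribosome and RNA polymerase, while the other subunits are nuclear genes whose proteins are imported. A bacterial-type polymerase, whose core subunits are the plastid rpo genes and whose sigma factors are nuclear, transcribes most photosynthesis genes, and nuclear phage-type polymerases transcribe others such as accD and rpoB. Many plastid genes are transcribed together as long precursors that are cut and trimmed afterwards. In plastids, unlike the nucleus, poly(A) tails are mostly added to RNA that is being degraded, and the 3′ labelling kit used here starts its cDNA from poly(A). In green stem the chloroplasts sit mainly in the cortex outside the vascular tissue. A sample of whole stem cannot tell fewer green cells from less plastid RNA in each cell.

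C3H14 had log2 intensities of 7.01, 6.12 and 7.43 on the WT arrays, 8.43, 9.10 and 7.07 on the C3H14-OE arrays, 5.18, 5.39 and 5.99 on the C3H15-OE arrays and 6.55, 6.43 and 6.08 on the mutant arrays, each in replicate order. C3H14-OE replicate 3 and mutant replicates 1 and 2 lay within the WT range, and mutant replicate 3 just below it, so this probe set did not separate the mutant from WT. The probe set of C3H15 is unnamed here. Of the xylem and fibre markers 3 of 11 were named (IRX10, IRX15 and IRX15L, of xylan synthesis), with mean log2 intensities of 6.97 to 9.75 per array. By limma's adjusted p, 3 of the 3 were lower in C3H15-OE than in WT (median -1.17), where 6.65% of all probe sets passed. In the mutant 2 were higher than in WT (0.94), where 5.70% passed. All 3 were lower than the mutant in C3H14-OE (-1.71) and C3H15-OE (-2.11), where 14.7% and 23.0% passed. Without WT replicate 1 and c3h14c3h15 replicate 3 the calls against the mutant held (7.93% and 15.5% of all probe sets). Those against WT did not, with medians of -1.14 and 0.98, where 0.114% and 0.0352% of all probe sets passed. These shares count both directions. The part of these tissue markers in the plastid values was not tested. Of the light-harvesting genes that mark green cells 3 of 18 were named, with means of 9.83 to 11.69. None of the 4 phloem, 4 epidermis or 4 senescence markers was named, so these could not be examined.

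2 arrays stood apart for plastid transcripts, WT replicate 1 and c3h14c3h15 replicate 3. The mean log2 intensity of the 69 genes was 7.63, 8.74 and 9.15 on WT replicates 1 to 3. It was 8.75, 9.22 and 9.18 on the C3H14-OE arrays, 9.03, 9.0 and 9.37 on the C3H15-OE arrays, and 9.21, 9.12 and 7.87 on the mutant arrays. The remaining 10 arrays overlapped between all groups. The WT mean was 8.51 ± 0.78 (SD, n = 3) and the mutant mean 8.73 ± 0.75, with 9.05 ± 0.26 for C3H14-OE and 9.14 ± 0.21 for C3H15-OE. The same 2 arrays were the lowest within their group in each of the 9 classes of genes. The median SD of a plastid gene between replicates was 0.702 in WT and 0.674 in the mutant, against 0.306 in C3H14-OE and 0.238 in C3H15-OE. Over all 22746 probe sets these medians were 0.166, 0.182, 0.136 and 0.140. Comparisons that involve WT or the mutant were therefore also fitted without these arrays, a choice made after the values were seen. Those fits have 2 arrays each of WT and mutant. As the arrays were picked by low plastid values, adjusted p-values of plastid genes in these fits are only descriptions.

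**Figure D1:**
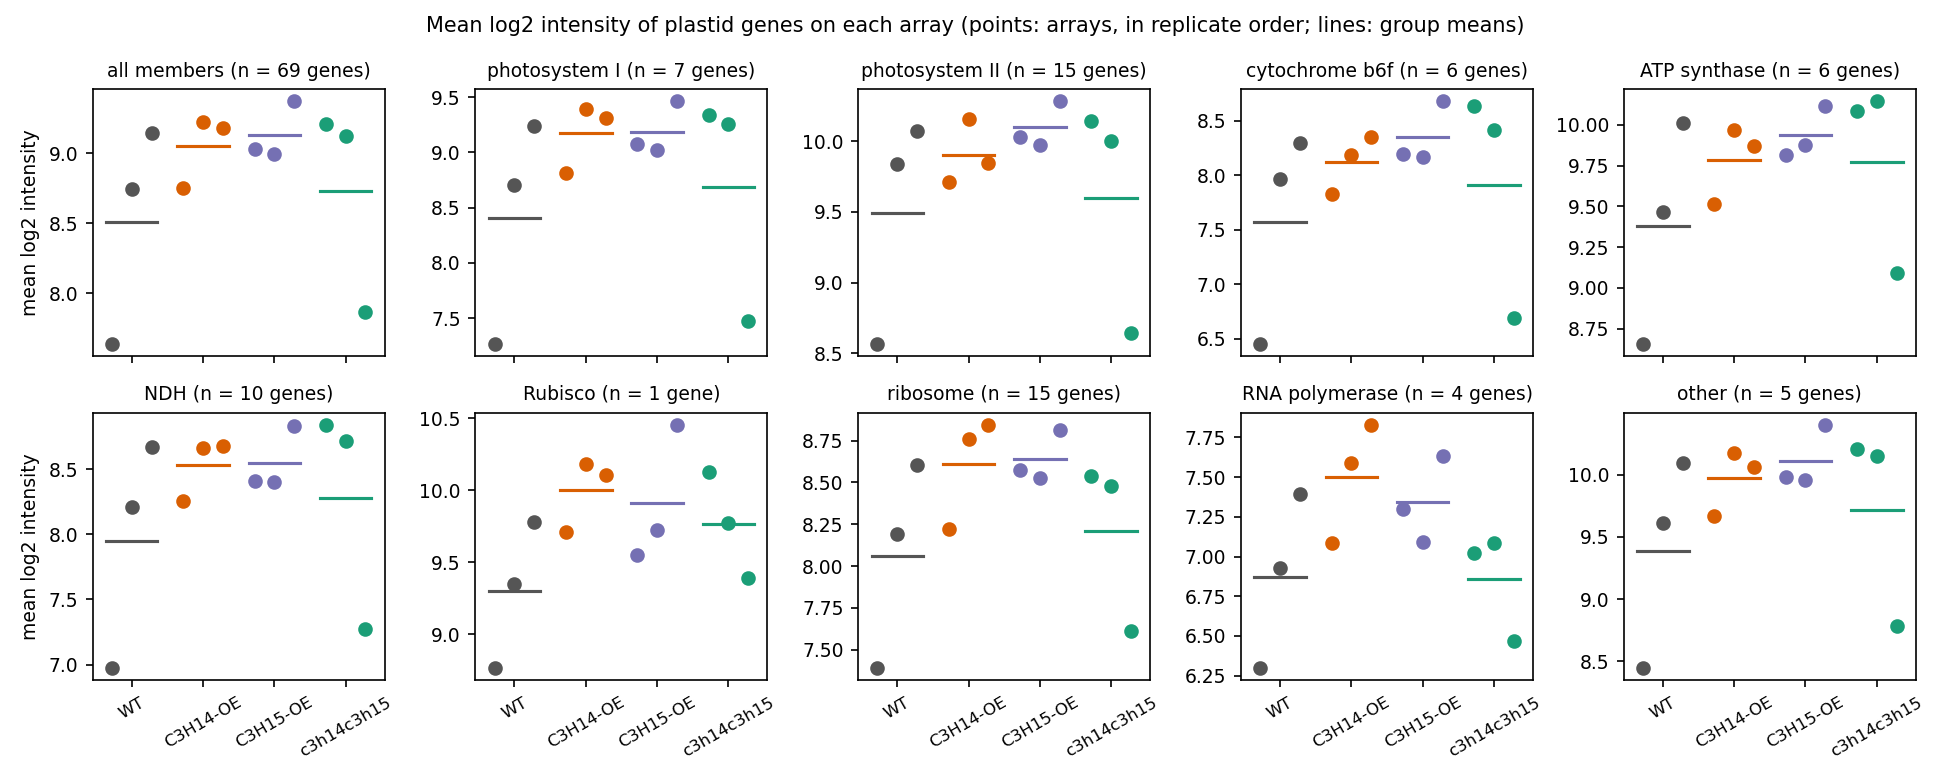
Mean log2 intensity of the plastid genes on each of the 12 arrays, for all 69 genes and for each complex. Points are arrays in replicate order within a group and lines are group means (n = 3 arrays); the y axes differ between panels. WT replicate 1 (7.63) and c3h14c3h15 replicate 3 (7.87) lie below the other 10 arrays, which lie between 8.74 and 9.37 for all 69 genes.

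The size of this drop was measured for each gene as its gap, the log2 value of an array minus the mean of the other 2 arrays of its group. The median gap was -1.13 on WT replicate 1 and -1.05 on c3h14c3h15 replicate 3, while over all tested probe sets it was 0.02 and 0.03. On WT replicate 1, 39 of 69 plastid genes lay at least 1 log2 unit below the other WT arrays, where 0.352% of all probe sets did. On c3h14c3h15 replicate 3 it was 37 of 69, where 0.356% of all probe sets did. In both arrays it was 33 of 69, against 0.242% of all probe sets. These 33 genes made up most of the 55 probe sets of the whole array that lay this low in both. A further 5 were probe sets of plastid genes with 2 copies, and of the remaining 17, 7 had no gene in the annotation.

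The depth of the gap differed widely between plastid genes and was alike on both arrays. Lowest on WT replicate 1 was rpl20, a protein of the large ribosomal subunit, with a gap of -3.52. Lowest on c3h14c3h15 replicate 3 was psbT, a small photosystem II subunit, with a gap of -4.29. rpl20 read 3.84 and psbT 3.37 on these arrays, below the array medians of 5.65 to 5.84. The table has no detection calls, so whether such readings lay above background was not tested and the order among the deepest gaps is uncertain. In both arrays 14 genes lay at least 2 log2 units low, and 13 genes lay within 0.5 of their group. The first set holds psbB, psbD, psbT, psaA, psaC, ycf4, petG, petL, atpF, ndhE, ndhG, rpl20, accD and cemA. The second holds psaB, psbF, psbJ, psbM, atpB, atpE, ndhC, ndhI, rps2, rps4, rpl32, rpoC2 and ccsA. Both sets span photosystems, ATP synthase, NDH and ribosome. Across the 69 genes the gaps of the 2 arrays correlated with Pearson's r = 0.949 and Spearman's rho = 0.943, and across all probe sets with r = 0.568. No array is shared between the 2 gaps, but genes are not independent replicates, and the value is a description. The gap followed the mean intensity of the gene weakly, with rho = 0.375 and 0.424, and the RefSeq gene length hardly, with rho = -0.03 and 0.05. The mean intensity is over all arrays, the 2 low ones included, so a deep gap itself lowers it and part of that rho is built in.

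**Figure D2:**
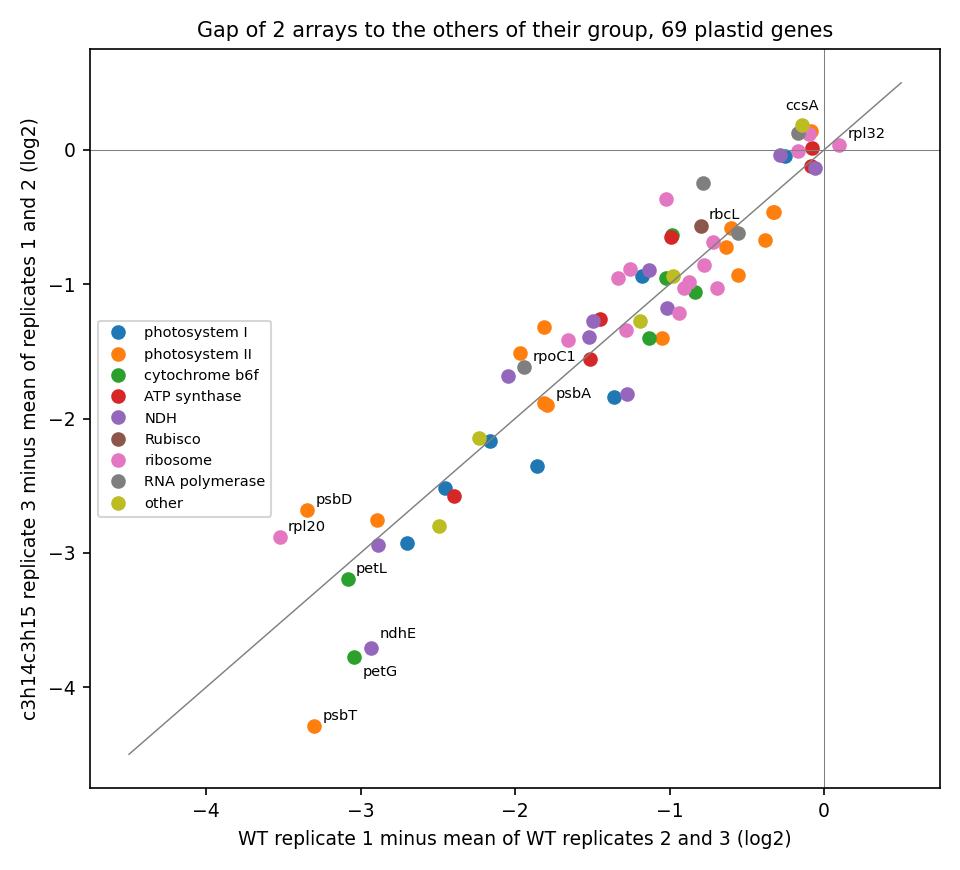
Gap of WT replicate 1 (x axis) against gap of c3h14c3h15 replicate 3 (y axis) for 69 plastid genes, both in log2 units relative to the other 2 arrays of the group; colours mark complexes and the diagonal marks equal gaps. The points follow the diagonal from psbT, petG and rpl20 at the low end to ccsA and rpl32 near 0.

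Genes that are transcribed together did not always share a common gap. In the psbB group (psbB, psbT, psbH, petB and petD) the gap on WT replicate 1 ran from -3.30 for psbT to -0.98 for petB, and on c3h14c3h15 replicate 3 from -4.29 for psbT to -0.63 for petB. In the ndhH to ndhD group, which also holds psaC, it ran from -2.93 for ndhE to -0.06 for ndhI and from -3.71 to -0.13 for the same genes. The neighbours psaA and psaB, which encode the reaction centre pair of photosystem I, had gaps of -2.16 and -0.25 on WT replicate 1 and of -2.16 and -0.05 on c3h14c3h15 replicate 3. In the rpo group rpoC1 had -1.94 and -1.62 and rpoC2 -0.17 and 0.13. Other groups were even: atpB and atpE lay between -0.12 and 0.01 on both arrays, psbE, psbF, psbL and psbJ between -0.72 and -0.32, and petL and petG between -3.78 and -3.04. psaB and ndhI, with small gaps, and petB, with the smallest gap of its group, were among the brightest probe sets. Their mean log2 intensities were 12.40, 11.76 and 11.93, where the array maxima lay between 12.88 and 13.51. Those of psaA, ndhE and psbT were 7.93, 7.09 and 6.81, and that of rpoC2, which had a small gap, was 6.74. The part of signal saturation or background in these gaps was not tested.

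Other probe sets moved on the same 2 arrays. Affymetrix arrays carry controls for Bacillus poly(A) transcripts, which are added to the RNA before labelling, each probed at the 3′ end, in the middle and at the 5′ end with 8 probe sets per position. Their median gap on WT replicate 1 was -0.59 at the 3′ end, -0.76 in the middle and -0.88 at the 5′ end. On c3h14c3h15 replicate 3 it was -0.42, -1.18 and -1.01. On the other 10 arrays these medians lay between -0.33 and 0.52, between -0.27 and 0.62, and between -0.29 and 0.71. The upper ends were those of WT replicate 2 and c3h14c3h15 replicate 1, whose gaps are taken against a mean that holds a low array. The control probe set of the cytosolic 25S ribosomal RNA had gaps of -1.55 and -1.75. Hybridisation controls, which are added after labelling, had median gaps of -0.04 and 0.02 at the 3′ end and of -0.02 and -0.05 at the 5′ end. In the middle (2 probe sets) they had 0.27 and 0.16. Single hybridisation probe sets lay between -0.41 and 0.53 on WT replicate 1. On c3h14c3h15 replicate 3 they lay between -0.37 and 0.39. End controls for Arabidopsis transcripts had median gaps of -0.02 and -0.09 at the 3′ end (6 probe sets) and of -0.16 and -0.29 at the 5′ end (6 probe sets). In the middle they had -0.27 and -0.47, with 4 of 4 probe sets below 0 on both arrays, where the medians of the other 10 arrays lay between -0.25 and 0.33. On C3H15-OE replicate 3, the array with the highest plastid mean (9.37), the middle probe sets had a median gap of -0.25, with 4 of 4 below 0. On C3H14-OE replicate 2, the array with the highest plastid mean of its group (9.22), the spike-in medians were -0.33, -0.27 and -0.29. There 8 of 8 probe sets were below 0 at each position. On C3H15-OE replicate 3 they were -0.09, -0.15 and -0.24, with 6, 7 and 8 of 8 below 0. The spike-ins and the 25S probe set were thus low on the arrays on which plastid genes were low. The hybridisation controls were not, in the median. Spike-ins and the middle probe sets of the Arabidopsis controls were low on those 2 arrays, but not only there. The part of these controls in the plastid result was not tested. Nuclear genes of the same complexes lay closer to 0 on these arrays. The median gap was -0.02 and 0.06 for 5 subunits of the photosystems and ATP synthase, 0.18 and 0.03 for 3 NDH subunits, and -0.01 and -0.19 for the 3 light-harvesting genes. The lowest of the 5 was PSBW, at -0.42 and -0.39. The 3 xylem markers had median gaps of -0.06 and -0.03.

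**Figure D3:**
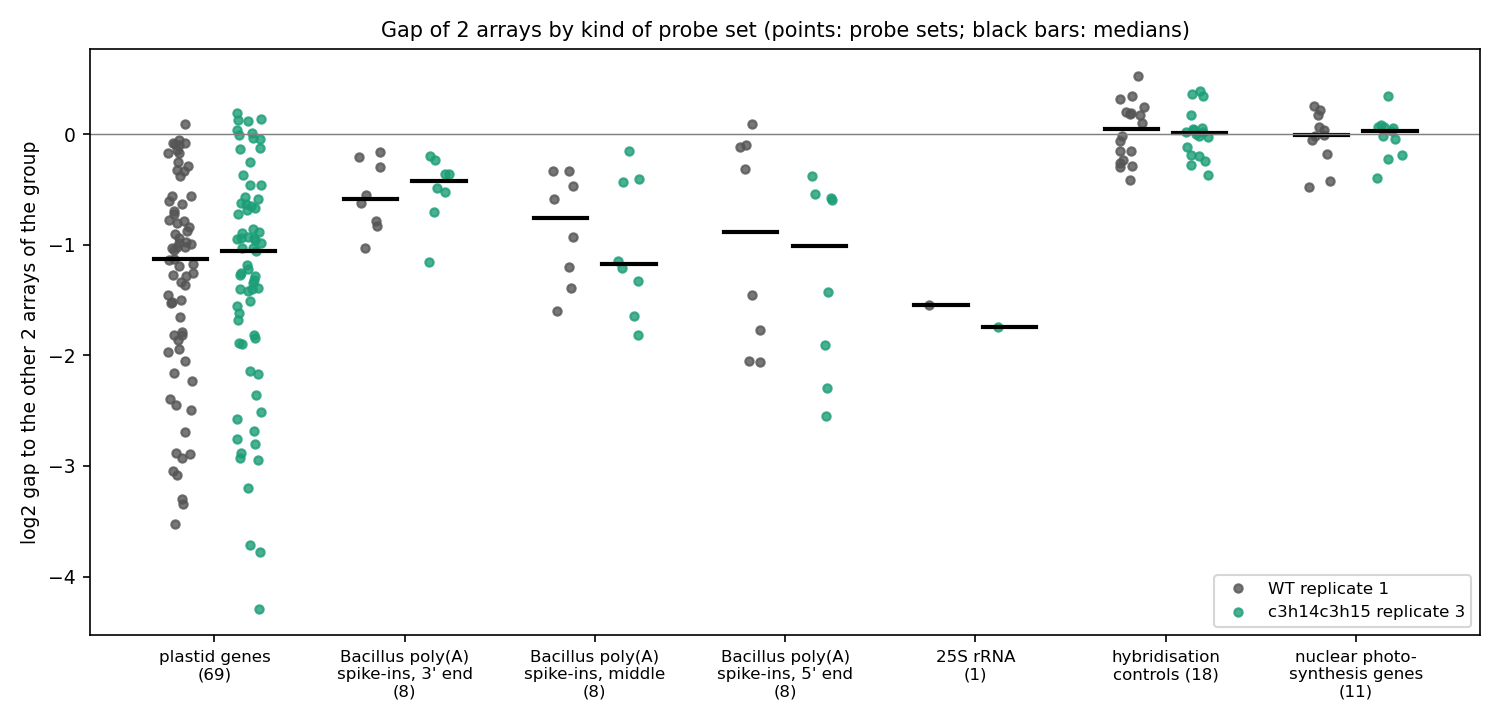
Gap in log2 units (y axis) of WT replicate 1 and c3h14c3h15 replicate 3 to the other 2 arrays of their group, by kind of probe set (x axis). Points are probe sets and black bars are medians. Plastid genes, Bacillus spike-ins and 25S rRNA lie below 0 in the median, while hybridisation controls and 11 nuclear photosynthesis genes have medians near 0.

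Against WT, no plastid gene passed the threshold in any group. Differences are between group means of log2 intensity, fitted with limma to all probe sets and all 12 arrays, with Benjamini-Hochberg adjustment of p across 22746 probe sets and a threshold of 0.05. The 3 comparisons with WT share the WT arrays. In C3H14-OE 0 of 69 plastid genes passed, where 0.0440% of all probe sets did, and 4 (rbcL, rps16, rpoC1 and atpI) lay higher with an unadjusted p under 0.05, where 6.41% of all probe sets did. In C3H15-OE 0 of 69 passed (6.65% of all probe sets) and 7 lay higher with an unadjusted p under 0.05 (11.1%). In the double mutant 0 of 69 passed (5.70%) and 2, ccsA and atpB, lay higher with an unadjusted p under 0.05 (9.37%). None lay lower with such a p. These counts are close to or below what the shares of all probe sets give for 69 genes.

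Most differences lay above 0, and their size depended on WT replicate 1. In C3H14-OE 60 of 69 differences from WT were above 0, with a mean of 0.54 and a median of 0.57, where the median of all probe sets was -0.04. In C3H15-OE 67 of 69 were above 0, with a mean of 0.63 and a median of 0.58, and in the mutant 53 of 69, with a mean of 0.23. Of all probe sets 43.4%, 44.6% and 48.0% were above 0 in these 3 comparisons. Without WT replicate 1 the mean difference was 0.11 for C3H14-OE, 0.19 for C3H15-OE and -0.21 for the mutant. Without WT replicate 1 and c3h14c3h15 replicate 3 together, 51, 58 and 52 of 69 differences were above 0, with means of 0.11, 0.19 and 0.22. Of all probe sets 44.7%, 45.4% and 47.7% were above 0 there. In that fit 0 of 69 genes passed in each comparison (0.00879%, 0.114% and 0.0352% of all probe sets). The median standard error of a plastid gene was 0.36 with all arrays and, without both, 0.23 for the overexpressors and 0.25 for the mutant. Leaving out another array also moved these values. Without c3h14c3h15 replicate 1 psbJ passed in C3H15-OE against WT (0.50, adjusted p = 0.0461), where 2019 of 22746 probe sets did. Without WT replicate 3 ccsA passed in the mutant (0.88, adjusted p = 0.0292), where 853 of 22746 did. The mean difference between mutant and WT was 0.66 without c3h14c3h15 replicate 3 alone, -0.01 without its replicate 1 and 0.03 without its replicate 2.

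**Figure D4:**
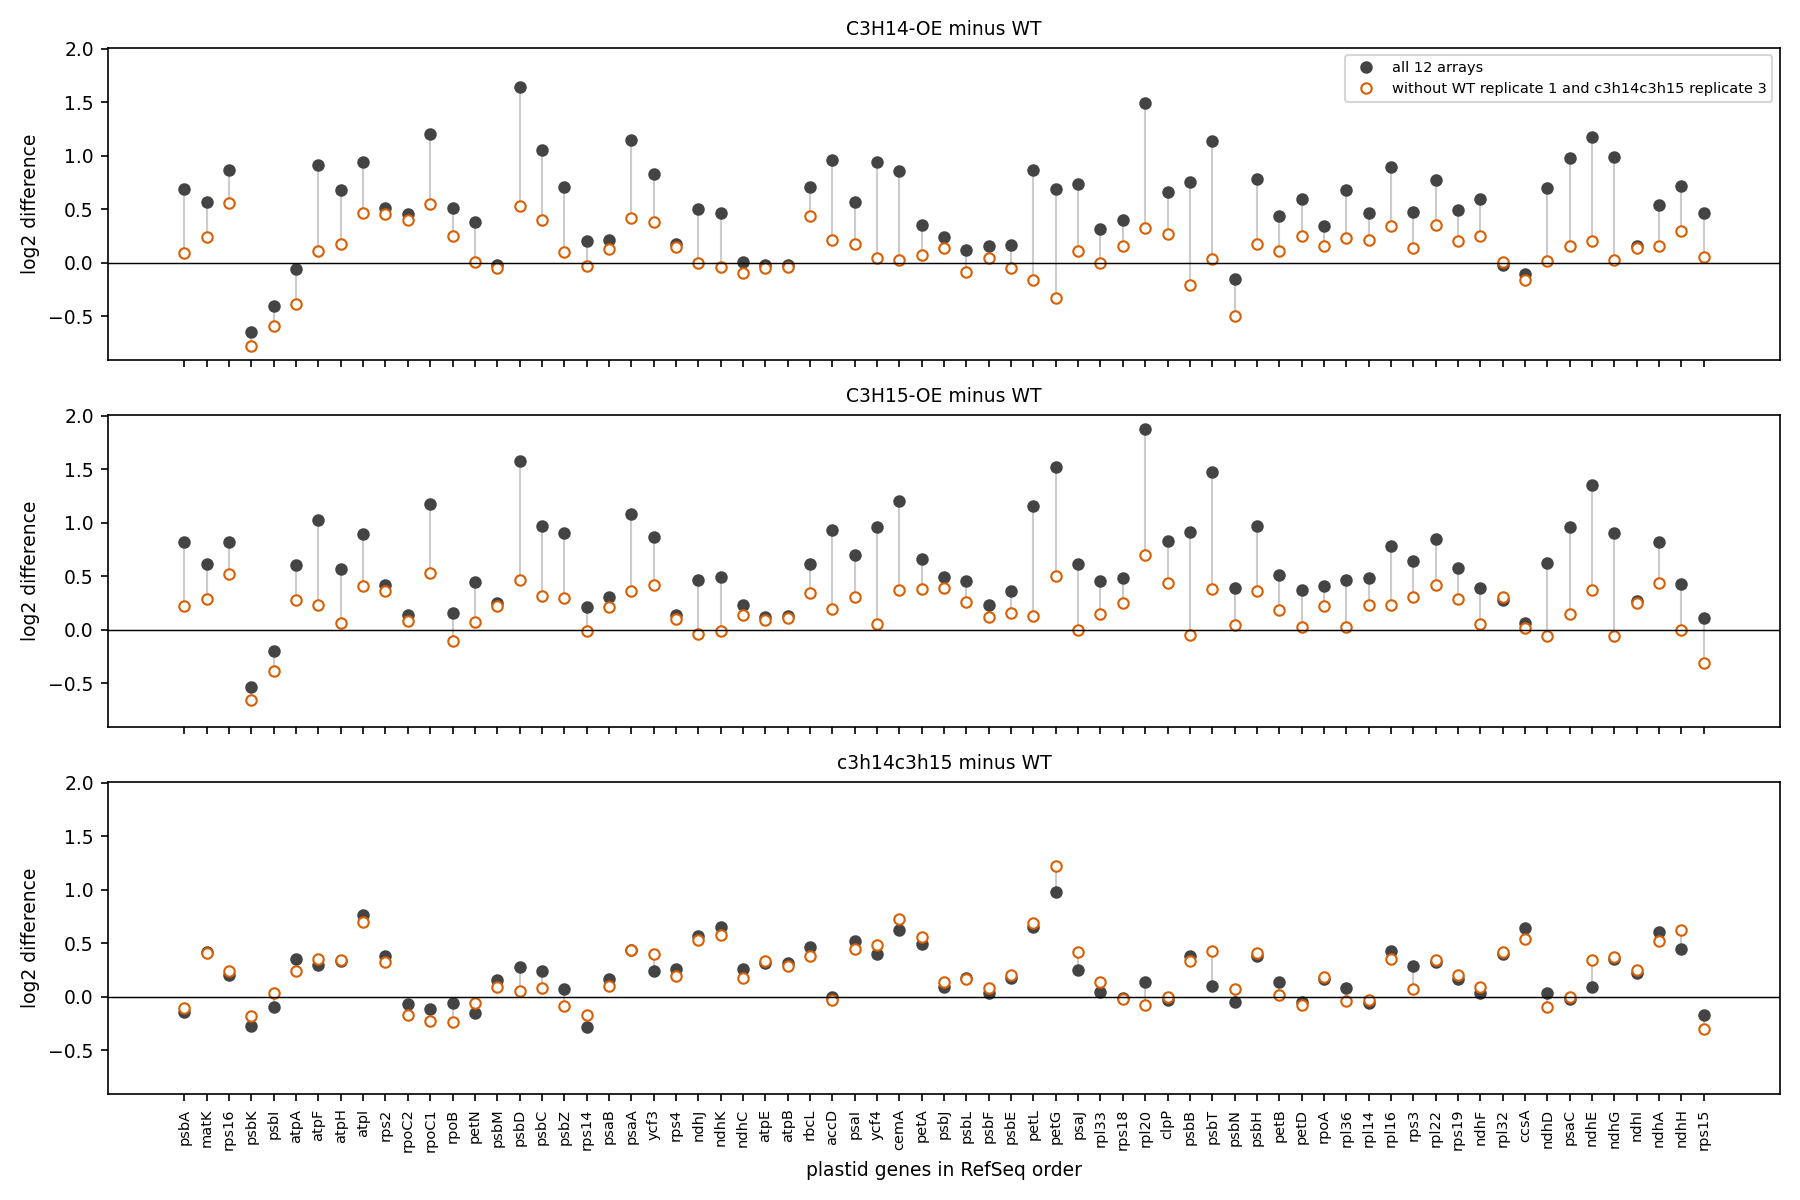
Log2 difference from WT (y axis) of each of the 69 plastid genes, in RefSeq order along the plastid genome (x axis), for the 3 other groups. Filled points are the fit on all 12 arrays and open points the fit without WT replicate 1 and c3h14c3h15 replicate 3; grey lines join the points of a gene. In both overexpressors most filled points lie above the open ones, and psbK and psbI lie below 0 in both fits.

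Between the overexpressors, 0 of 69 genes passed, where 0.123% of all probe sets did, and 2, psbM and atpA, had an unadjusted p under 0.05, where 9.79% did. C3H14-OE lay above C3H15-OE in 24 of 69 genes and below it in 45, with a mean difference of -0.08. Of all probe sets 48.6% lay above. Neither of the low arrays belongs to these groups. In the fit without them 0.00% of all probe sets and 0 of 69 plastid genes passed.

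The comparisons with the double mutant share the mutant arrays. Against it, C3H14-OE differed in 1 of 69 plastid genes, where 14.7% of all probe sets passed. That gene was ccsA, which encodes a protein that attaches haem to c-type cytochromes in the thylakoid. Its log2 intensity was 10.20, 9.94 and 10.75 on the WT arrays, 10.03, 10.33 and 10.20 in C3H14-OE, 10.36, 10.05 and 10.66 in C3H15-OE and 10.87, 10.90 and 11.07 in the mutant. All 3 mutant arrays lay above all 9 others, and replicate 3 was here the highest of them. The difference of C3H14-OE from the mutant was -0.76 (SE 0.20, limma adjusted p = 0.0290). The call was lost without C3H14-OE replicate 1 (adjusted p = 0.0928), C3H14-OE replicate 3 (0.0709), c3h14c3h15 replicate 2 (0.0615) or c3h14c3h15 replicate 3 (0.0873), and without both low arrays (0.108), while the difference stayed between -0.78 and -0.68 in these fits. Without c3h14c3h15 replicate 1, rps16 passed as well (0.99, adjusted p = 0.0363), where 3420 of 22746 probe sets did. Without its replicate 2 rpl32 passed in place of ccsA (-0.62, adjusted p = 0.0427), where 2174 of 22746 did.

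In C3H15-OE against the mutant 0 of 69 genes passed, where 23.0% of all probe sets did. Here ccsA was at -0.59 (SE 0.20, adjusted p = 0.0570). With an array left out, ccsA passed without WT replicate 2, WT replicate 3 or C3H15-OE replicate 3 (adjusted p = 0.0396, 0.0252 and 0.0327). Of 22746 probe sets 5288, 5066 and 4679 passed in these fits. Without WT replicate 1 it was rpoC1 (1.29, adjusted p = 0.0430), where 5000 of 22746 passed. Without c3h14c3h15 replicate 1 psbJ, rps16 and rps18 passed, at 0.55, 0.95 and 0.77 (adjusted p = 0.0240, 0.0313 and 0.0394). There 5236 of 22746 passed. An unadjusted p under 0.05 was found for 6 genes with C3H14-OE and 4 with C3H15-OE, where 31.0% and 36.8% of all probe sets had it. The mean differences from the mutant were 0.32 and 0.40 with all arrays and -0.12 and -0.03 without c3h14c3h15 replicate 3.

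Without both low arrays, 2 genes passed in C3H14-OE against the mutant, where 7.93% of all probe sets did, and 0 in C3H15-OE, where 15.5% did. This fit has only 2 mutant arrays. The arrays left out were picked by low plastid values, and both genes were among those with the deepest gaps. Their adjusted p-values in this fit are thus only descriptions. Both genes encode small subunits of the cytochrome b6f complex and lie next to each other. petG had log2 intensities of 3.48, 6.55 and 6.49 in WT, 5.85, 6.57 and 6.18 in C3H14-OE, 6.74, 6.98 and 7.36 in C3H15-OE and 7.85, 7.65 and 3.97 in the mutant. Mutant replicates 1 and 2 lay above all other arrays, and mutant replicate 3 lay near WT replicate 1. The difference of C3H14-OE from the mutant was -0.29 (SE 0.97, adjusted p = 0.863) with all arrays and -1.55 (SE 0.23, adjusted p = 0.0141) without both. petL had 4.45, 7.30 and 7.76 in WT, 7.14, 7.42 and 7.56 in C3H14-OE, 7.46, 7.60 and 7.93 in C3H15-OE and 8.45, 7.99 and 5.03 in the mutant. Its difference turned from 0.21 (SE 0.89, adjusted p = 0.892) to -0.85 (SE 0.22, adjusted p = 0.0461) when both arrays were left out.

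**Figure D5:**
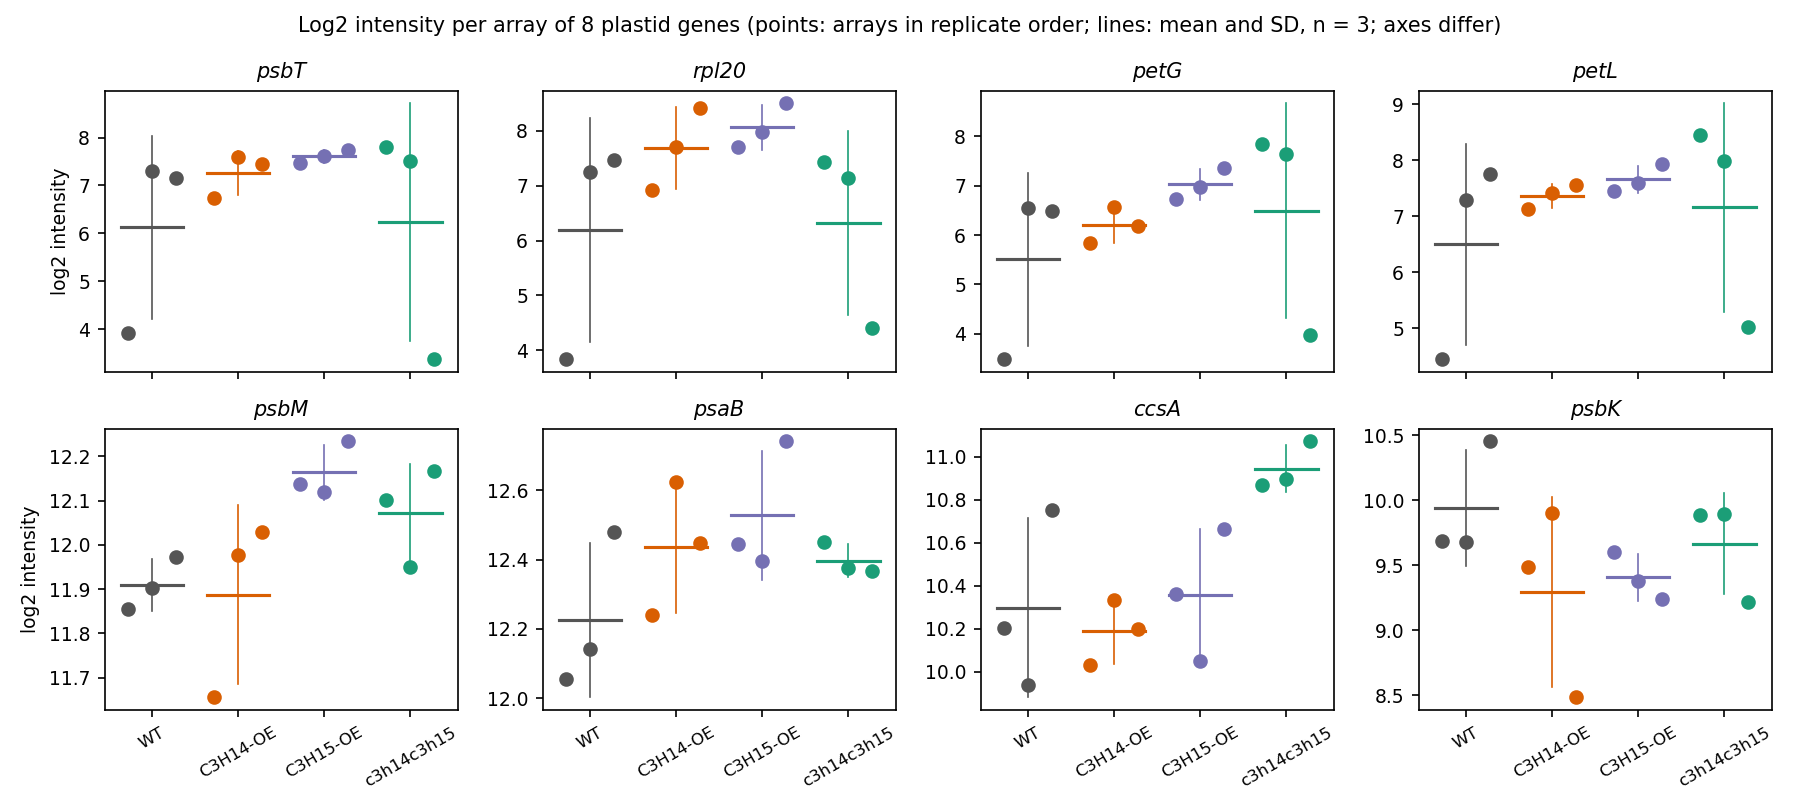
Log2 intensity (y axis) of 8 plastid genes on each array, by group (x axis); points are arrays in replicate order, and lines are the mean and SD (n = 3 arrays). The upper row holds genes with large gaps and the lower row genes with smaller ones, among them psbK with gaps of -0.38 and -0.67. The axes differ between panels. For psbT, rpl20, petG and petL, WT replicate 1 and c3h14c3h15 replicate 3 lie far below, while for psbM, psaB and ccsA they do not.

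The complexes are described next through the gene with the highest mean signal in each and the gene with the largest difference from WT. The first choice is only a rule for naming genes, as probe sets differ in how brightly they bind. Photosystem I passes electrons to ferredoxin, and its plastid genes lay above WT in 7 of 7 cases in both overexpressors, with mean differences of 0.77 and 0.78. These means were 0.20 and 0.21 without both low arrays. psaA, one of the reaction centre pair, had 5.82, 7.65 and 8.32 in WT, 8.03, 8.90 and 8.30 in C3H14-OE, 8.27, 8.04 and 8.73 in C3H15-OE and 8.23, 8.62 and 6.26 in the mutant. Apart from the low arrays the groups overlapped. The difference of C3H14-OE from WT was 1.14 (SE 0.65, adjusted p = 0.449), and 0.42 without both arrays. psaB, the other of the pair, had 12.06, 12.14 and 12.48 in WT, 12.24, 12.62 and 12.45 in C3H14-OE, 12.45, 12.40 and 12.74 in C3H15-OE and 12.45, 12.37 and 12.37 in the mutant, with all groups overlapping. Its differences from WT were 0.21, 0.30 and 0.17 (SE 0.14), and 0.13, 0.22 and 0.10 without both low arrays.

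Photosystem II splits water. In C3H14-OE 11 of 15 of its genes lay above WT and in C3H15-OE 13 of 15, with medians of 0.24 and 0.50. With WT replicate 1 and mutant replicate 3 left out, 8 and 12 of 15 lay above, with medians of 0.03 and 0.23. psbD, which encodes the D2 reaction centre protein, had 6.69, 9.90 and 10.16 in WT, 10.22, 10.80 and 10.66 in C3H14-OE, 10.35, 10.18 and 10.96 in C3H15-OE and 10.11, 10.07 and 7.41 in the mutant. All 6 overexpressor arrays lay above all 6 others. The difference from WT was 1.64 in C3H14-OE and 1.58 in C3H15-OE (SE 0.86, adjusted p = 0.418 and 0.286), and 0.53 and 0.47 (SE 0.24, adjusted p = 0.518 and 0.332) without both arrays. psbM, a small subunit, had 11.86, 11.90 and 11.97 in WT, 11.66, 11.98 and 12.03 in C3H14-OE, 12.14, 12.12 and 12.23 in C3H15-OE and 12.10, 11.95 and 12.17 in the mutant. Its differences from WT were -0.02, 0.25 and 0.16 (SE 0.11, adjusted p = 0.948, 0.200 and 0.455), and -0.05, 0.23 and 0.09 without both low arrays.

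The pair psbK and psbI, 2 small photosystem II subunits transcribed together, lay below WT in both overexpressors. psbK had 9.69, 9.68 and 10.45 in WT, 9.49, 9.90 and 8.48 in C3H14-OE, 9.60, 9.38 and 9.24 in C3H15-OE and 9.88, 9.89 and 9.22 in the mutant. C3H14-OE replicate 3 was the lowest array and WT replicate 3 the highest. The differences of psbK from WT were -0.65 and -0.53 (SE 0.33, adjusted p = 0.410 and 0.357), and those of psbI -0.40 and -0.20 (SE 0.32, adjusted p = 0.592 and 0.764). psbK was at -0.77 and -0.66 and psbI at -0.59 and -0.38 without both low arrays. They were the only genes below WT in C3H15-OE in the fit on all arrays.

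The cytochrome b6f complex passes electrons between the photosystems, and 6 of 6 of its plastid genes lay above WT in each overexpressor, with means of 0.55 and 0.78. With both low arrays left out 4 and 6 of 6 lay above, with means of -0.01 and 0.22. The largest difference was that of petG in C3H15-OE, at 1.52 (SE 0.97, adjusted p = 0.365), and 0.51 without both low arrays. In the mutant petG stood 0.98 above WT with all arrays and 1.23 without both (adjusted p = 0.619 and 0.0852). petB, which encodes cytochrome b6, had 11, 11.90 and 12.06 in WT, 11.97, 12.18 and 12.13 in C3H14-OE, 12.03, 12.05 and 12.42 in C3H15-OE and 12.16, 11.85 and 11.37 in the mutant. The low arrays are again WT replicate 1 and mutant replicate 3, and the other arrays overlapped. The differences of petB from WT were 0.44, 0.51 and 0.14 (SE 0.26), and 0.11, 0.18 and 0.02 without both low arrays.

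The ATP synthase genes form 2 transcribed groups, and these differed in their gaps. atpF, which encodes a stator subunit, had 5.82, 7.98 and 8.45 in WT, 7.91, 8.60 and 8.47 in C3H14-OE, 8.38, 8.44 and 8.52 in C3H15-OE and 8.58, 8.56 and 6.0 in the mutant. Its difference from WT was 1.03 in C3H15-OE (SE 0.71, adjusted p = 0.406) and 0.23 without both low arrays. atpE, which encodes the epsilon subunit of the catalytic part, had 12.53, 12.41 and 12.81 in WT, 12.34, 12.72 and 12.62 in C3H14-OE, 12.50, 12.65 and 12.95 in C3H15-OE and 12.89, 12.99 and 12.82 in the mutant. The 3 mutant arrays lay above the 3 WT arrays for atpE, also its replicate 3. The difference was 0.32 (SE 0.15, adjusted p = 0.246). For atpB, the beta subunit next to it, the difference was also 0.32 (SE 0.12, adjusted p = 0.144). In the mutant 6 of 6 ATP synthase genes lay above WT, between 0.30 and 0.76, and between 0.24 and 0.70 without both low arrays.

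The NDH complex carries electrons back around photosystem I, and 10 of 10 of its plastid genes lay above WT in each of the other groups, with means of 0.58, 0.60 and 0.33. Without both low arrays 7, 6 and 9 of 10 lay above, with means of 0.10, 0.11 and 0.34. ndhE had 4.48, 7.09 and 7.73 in WT, 7.16, 7.70 and 7.98 in C3H14-OE, 7.59, 7.59 and 8.17 in C3H15-OE and 7.96, 7.56 and 4.05 in the mutant. Its difference from WT was 1.35 in C3H15-OE (SE 0.95, adjusted p = 0.419) and 0.37 without both. ndhI had 11.56, 11.40 and 11.82 in WT, 11.53, 11.86 and 11.87 in C3H14-OE, 11.80, 11.77 and 12.02 in C3H15-OE and 11.96, 11.77 and 11.73 in the mutant. The groups overlapped for ndhI, with differences of 0.16, 0.27 and 0.23 (SE 0.14), and 0.14, 0.25 and 0.25 without both low arrays.

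rbcL encodes the large subunit of Rubisco, the enzyme that fixes carbon dioxide. It had 8.77, 9.35 and 9.78 in WT, 9.71, 10.19 and 10.11 in C3H14-OE, 9.55, 9.72 and 10.45 in C3H15-OE and 10.13, 9.77 and 9.39 in the mutant. WT replicate 3 lay within the range of each other group. The differences from WT were 0.70, 0.61 and 0.46 (SE 0.29, adjusted p = 0.323, 0.225 and 0.395), and 0.44, 0.34 and 0.39 without both low arrays.

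Of the 15 ribosomal protein genes 14 lay above WT in C3H14-OE and 15 in C3H15-OE, with means of 0.55 and 0.57, and without both low arrays 13 and 13, with means of 0.21 and 0.24. rpl20 had 3.84, 7.25 and 7.47 in WT, 6.92, 7.71 and 8.41 in C3H14-OE, 7.71, 7.98 and 8.50 in C3H15-OE and 7.44, 7.13 and 4.40 in the mutant. All C3H15-OE arrays lay above all WT and mutant arrays. Its difference from WT was 1.88 in C3H15-OE (SE 0.94, adjusted p = 0.247), the largest of any plastid gene in that fit, and 0.70 (SE 0.38, adjusted p = 0.358) without both. rps4, of the small subunit, had 11.03, 10.76 and 11.50 in WT, 10.91, 11.47 and 11.44 in C3H14-OE, 11.17, 11.08 and 11.45 in C3H15-OE and 11.36, 11.29 and 11.44 in the mutant, with differences of 0.17, 0.14 and 0.26 (SE 0.20), and 0.14, 0.10 and 0.19 without both low arrays. rps16 came closest to the threshold in C3H14-OE, with differences of 0.86 and 0.82 in the overexpressors (SE 0.31, adjusted p = 0.276 and 0.128), and 0.56 and 0.52 without both low arrays.

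The 4 polymerase genes were all above WT in both overexpressors, with means of 0.63 and 0.47. In the mutant only rpoA was, and the mean was -0.02. The means were 0.34, 0.18 and -0.11 without both low arrays. rpoC1, a core subunit, had 6.09, 7.80 and 8.26 in WT, 8.21, 8.65 and 8.89 in C3H14-OE, 8.54, 8.19 and 8.95 in C3H15-OE and 7.74, 7.88 and 6.19 in the mutant. All 6 overexpressor arrays lay above all 3 mutant arrays. The differences of rpoC1 from the mutant were 1.31 and 1.29 (SE 0.54, adjusted p = 0.120 and 0.104), and 0.77 and 0.75 (SE 0.26, adjusted p = 0.0947 and 0.0804) without both low arrays. rpoA, the alpha subunit, is transcribed with ribosomal protein genes. It had 9.34, 9.81 and 9.98 in WT, 9.67, 10.22 and 10.26 in C3H14-OE, 10.05, 10.02 and 10.27 in C3H15-OE and 9.95, 10.22 and 9.47 in the mutant, with differences of 0.34, 0.40 and 0.17 (SE 0.23), and 0.15, 0.22 and 0.19 without both low arrays.

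Of the 5 other genes, clpP encodes the catalytic subunit of the plastid protease. It had 10.26, 11.30 and 11.59 in WT, 11.57, 11.78 and 11.80 in C3H14-OE, 11.86, 11.82 and 11.97 in C3H15-OE and 11.52, 11.38 and 10.17 in the mutant. All C3H15-OE arrays lay above all WT and mutant arrays. Its difference in C3H15-OE was 0.83 from WT and 0.86 from the mutant (SE 0.36, adjusted p = 0.179 and 0.105), and 0.44 and 0.43 (SE 0.13, adjusted p = 0.139 and 0.0520) without both low arrays. cemA, an envelope membrane protein, had 6.98, 9.27 and 9.68 in WT, 9.14, 9.84 and 9.52 in C3H14-OE, 9.62, 9.57 and 10.35 in C3H15-OE and 10.14, 10.27 and 7.40 in the mutant. Its difference from WT in C3H15-OE was 1.2 (SE 0.77, adjusted p = 0.365), and 0.37 without both.

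The 7 plastid genes with 2 copies had the same low arrays. Their mean log2 intensity was 7.92, 8.91 and 9.43 in WT, 8.90, 9.35 and 9.42 in C3H14-OE, 9.20, 9.07 and 9.43 in C3H15-OE and 9.28, 9.31 and 7.90 in the mutant. None passed limma's adjusted threshold in any of the 6 comparisons, where 0.0440% to 23.0% of all probe sets did. The 16 genes of the mitochondrial genome, taken by symbol, had median gaps of -0.23 on WT replicate 1 and -0.27 on c3h14c3h15 replicate 3, between -1.21 and 0.50. By limma's adjusted p 6 of the 16 were higher than the mutant in C3H14-OE, where 14.7% of all probe sets passed in either direction, and 6 in C3H15-OE, where 23.0% did. Without both low arrays it was 6 and 6, where 7.93% and 15.5% did. Against WT, 5 of the 16 were lower in the mutant (5.70%) and 1, nad9, higher in C3H15-OE (6.65%). Without both low arrays 0 and 0 passed, where 0.0352% and 0.114% of all probe sets did. The largest differences from the mutant were those of nad9, a subunit of respiratory complex I. They were 1.37 in C3H14-OE and 1.49 in C3H15-OE (SE 0.17). Its log2 intensity was 5.32, 5.53 and 5.66 in WT, 5.79, 6.24 and 6.19 in C3H14-OE, 6.09, 6.27 and 6.22 in C3H15-OE and 4.81, 4.94 and 4.35 in the mutant, with no overlap between overexpressors and mutant.

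The nuclear genes whose proteins join the plastid-encoded ones could be followed only in part, through 3 of 17 NDH subunits and 5 of 32 subunits of the photosystems, cytochrome b6f complex, ATP synthase and Rubisco. All 3 NDH subunits were higher in the mutant than in WT, where 5.70% of all probe sets passed in either direction. NDHL had 6.39, 6.82 and 6.91 in WT, 6.79, 6.05 and 5.22 in C3H14-OE, 6.10, 6.33 and 6.68 in C3H15-OE and 8.11, 8.30 and 8.29 in the mutant. NDHN had 6.80, 6.65 and 6.50 in WT, 6.99, 6.30 and 5.71 in C3H14-OE, 6.07, 6.37 and 6.76 in C3H15-OE and 8.29, 8.33 and 8.28 in the mutant. For both genes the 3 mutant arrays lay together above all others, replicate 3 included. The differences from WT were 1.53 for NDHL, 1.65 for NDHN and 0.63 for NDHS (limma adjusted p = 0.0190, 0.00832 and 0.0230). Without both low arrays the differences from WT were 1.34, 1.74 and 0.68. In that fit 0 of 3 passed (adjusted p = 0.167, 0.0860 and 0.123), and 0.0352% of all probe sets did. Against the mutant all 3 were lower in C3H14-OE and in C3H15-OE, where 14.7% and 23.0% of all probe sets passed. The same held without both low arrays (7.93% and 15.5%).

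Of the 5 other nuclear subunits PSAE1, PSAN, PSBY and ATPC1 were lower than the mutant in both overexpressors. PSBW was at -0.52 and -0.47 (adjusted p = 0.0654 and 0.0731). Of all probe sets 14.7% passed in C3H14-OE and 23.0% in C3H15-OE. None of the 5 passed against WT in C3H14-OE, C3H15-OE or the mutant (0.0440%, 6.65% and 5.70% of all probe sets). PSAE1, a photosystem I subunit, had 11.56, 11.53 and 11.71 in WT, 11.45, 11.25 and 10.63 in C3H14-OE, 10.95, 11.02 and 11.36 in C3H15-OE and 12.09, 12.35 and 12.29 in the mutant. Its differences from the mutant were -1.13 in each overexpressor (SE 0.19, adjusted p = 0.00422 and 0.00216). With both low arrays left out, 3 of the 5 (PSAE1, PSBW and PSBY) passed against the mutant in C3H14-OE and 5 of 5 in C3H15-OE. Of all probe sets 7.93% and 15.5% did. The light-harvesting genes LHCB4.1, LHCB4.2 and LHCB4.3, which mark green cells, were lower than the mutant in both overexpressors as well. It was 3 of 3 in each, and 2 of 3 without both low arrays, beside the same shares of all probe sets. Against WT, LHCB4.3 was higher in the mutant (1.85, limma adjusted p = 0.00861), and at 1.85 without both low arrays (adjusted p = 0.0989). LHCB4.1 and LHCB4.2 did not pass there (adjusted p = 0.201 and 0.265). The part of these genes in the plastid result was not tested.

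Few of the nuclear genes that make or handle plastid RNA were named. Of 8 sigma factors and phage-type polymerases only RPOTMP was, with differences from WT of 0.09, 0.02 and 0.02. Of 12 factors of RNA processing and decay only CRP1, which in maize acts on petB and petD RNA, was, with differences of -0.10, -0.12 and 0.18. None of the 12 proteins associated with the plastid-encoded polymerase was named. Of 19 nuclear plastid ribosomal proteins PRPL3 and PRPL29 were named, and neither passed against WT. PRPL3 was lower in C3H15-OE than in the mutant (-0.47, adjusted p = 0.0467), where 23.0% of all probe sets passed. It stood at -0.46 without both low arrays (adjusted p = 0.124). Their gaps on the low arrays lay between -0.40 for RPOTMP on c3h14c3h15 replicate 3 and 0.08 for PRPL29 on WT replicate 1.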

How the data were processed

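The deposited values are linear intensities per probe set; the submitters' processing notes name RMA, without a version. The test used their log2. Of 22810 probe sets 64 controls were left out and 22746 entered the fit, dim ones included. Array medians lay between 5.65 and 5.84 log2 units, and the number of arrays limits the precision. 13436 of 13513 probe sets with 1 gene matched the RefSeq table by gene ID; mitochondrial genes were matched by symbol. No coordinates or sequences are given. limma 3.58.1 under R 4.3.3 fitted a mean per group to 12 arrays (8 residual and 3.61 prior degrees of freedom), with 6 contrasts. The script was tested on simulated data. Members, lists and tests were chosen with earlier results of these data known. By rule, each complex is shown through its brightest gene and the gene with the largest difference from WT, beside genes past the threshold. Transcribed groups were assigned from general knowledge of the plastid genome. Samples were not paired by replicate number in the main fit. Deviations of 4 of 18 pairs with the same number correlated over 0.1. Pairs with different numbers were not computed, so this cannot decide whether the numbers pair the samples. Alternatives tried were cyclic loess, another quantile normalization, no dim probe sets, only the arrays compared, a replicate block, an intensity trend with robust fit, no probe sets with shared-sequence suffixes, each array left out and, added after seeing the data, both low arrays left out.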

Additional observations from a re-analysis of the deposited data

How the results depend on the processing

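The number of plastid genes past the threshold kept within 0 to 1 in all 6 comparisons under 7 planned settings. These leave out no array of the groups compared. Of 22746 probe sets (21685 or 13647 where some were left out), 4 to 39, 1051 to 1686 and 544 to 1513 passed against WT. These are for C3H14-OE, C3H15-OE and the mutant. Between the overexpressors it was 0 to 42, and for each of them against the mutant 1848 to 3252 and 3813 to 5084. C3H15-OE against the mutant had 1 without the dimmest 40% of probe sets, which left 66 plastid genes. It had 1 with the replicate block (ccsA, -0.59, adjusted p = 0.0360). Of all probe sets 4589 of 13647 and 4805 of 22746 passed in these fits. The replicate block changed no other call. With 1 array left out, the counts ranged from 0 to 0 for C3H14-OE against WT and C3H14-OE against C3H15-OE, from 0 to 1 for C3H15-OE and the mutant against WT, from 0 to 2 for C3H14-OE against the mutant and from 0 to 3 for C3H15-OE against the mutant. Of 22746 probe sets, 1 to 56, 0 to 183, 223 to 2019, 361 to 1434, 1878 to 3420 and 3117 to 5293 passed, in the same order. Without both low arrays C3H14-OE against the mutant had 2, petG and petL, where 7.93% of all probe sets passed. petL turned to -0.85, and the cause was not tested. The mean difference of the plastid genes with 1 array left out ranged from 0.11 to 0.86 (C3H14-OE minus WT), 0.19 to 0.95 (C3H15-OE minus WT), -0.21 to 0.66 (mutant minus WT), -0.17 to 0.07 (C3H14-OE minus C3H15-OE), -0.12 to 0.56 (C3H14-OE minus mutant) and -0.03 to 0.64 (C3H15-OE minus mutant). Under the other planned settings it lay between 0.52 and 0.55, 0.61 and 0.65, 0.22 and 0.27, -0.10 and -0.07, 0.26 and 0.32, and 0.34 and 0.40. For 19 genes followed singly there were 2280 values under alternatives, of which 8 gained a call, 5 lost one (all ccsA), 1 reversed with a call and 101 changed sign with no call in either fit. The mean of all probe sets of a gene was not run as an alternative, since each gene has 1 probe set.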
